A study of Mus musculus with 3 samples.

Results

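The sites described here are 1471 hotspots of meiotic double-strand breaks whose H3K4me3 was stronger on the C57BL/6J (B6) chromosome than on the CAST/EiJ (CAST) chromosome, though present on both. They came from the testis of F1 hybrid males of these inbred mouse strains. At Prdm9 every animal had one CAST and one humanized (HUM) copy, and no other genotype was analysed here. Members were all autosomal sites that the authors assigned to the CAST allele, that did not overlap an H3K4me3 peak independent of PRDM9, and whose H3K4me3 B6 share lay over 0.7 and up to 0.9. They were thus chosen by their H3K4me3 B6 share, the part of a site's H3K4me3 that fell on the B6 homologue. The members made up 5.98% of the 24586 sites of the deposited table and 13.7% of the 10708 autosomal CAST-class sites with an H3K4me3 share and no such overlap (exact 95% interval 13.1% to 14.4%). A further 148 CAST-class sites lay in the same window but overlapped a PRDM9-independent peak and were left out. The DMC1 library came from whole testis of a 10-week-old male, and the H3K4me3 library from testis chromatin cut with micrococcal nuclease, from an adult male. The file headers credit the raw reads behind the H3K4me3 values to an earlier study, and whether these are the reads of that library is not stated. Each assay had 1 library, so replicates cannot check any difference and no p-value is given. Intervals cover the variation among sites of these libraries only.

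PRDM9 recognises DNA motifs through an array of zinc fingers early in meiosis and trimethylates lysine 4 of histone H3 on the flanking nucleosomes. Breaks are then made near these marks, and the recombinase DMC1 coats the single-stranded ends while they search the homologue for a repair template. In a hybrid, sequence changes in a binding motif can make PRDM9 bind one homologue better than the other, so that marks and breaks are skewed. H3K4me3 reports where PRDM9 has acted, whereas the DMC1 signal depends both on how often breaks form and on how long DMC1 stays. Both signals are mixed over all cells of the testis.

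Sequence is shown for the 4 members whose centre lay within a promoter window of RefSeq (GRCm38.p6, identical in coordinates to mm10). Each window runs from 250 bases before to 50 bases after an annotated gene start, 5′ to 3′ on the gene's strand. Capitals mark up to 20 bases on each side of the DMC1 centre. The window of Nlrp3, which encodes an inflammasome sensor, is chr11:59542436-59542735 (+), with the centre at position -78 from the gene start. That of Gm12295 is chr11:65287784-65288083 (−), with the centre at -240. That of C730014E05Rik is chr16:23175030-23175329 (+), with the centre at 48 past the start. That of Gm31012 is chr16:93929092-93929391 (+), with the centre at 20 past the start and also inside Cldn14, a tight-junction gene.
Nlrp3: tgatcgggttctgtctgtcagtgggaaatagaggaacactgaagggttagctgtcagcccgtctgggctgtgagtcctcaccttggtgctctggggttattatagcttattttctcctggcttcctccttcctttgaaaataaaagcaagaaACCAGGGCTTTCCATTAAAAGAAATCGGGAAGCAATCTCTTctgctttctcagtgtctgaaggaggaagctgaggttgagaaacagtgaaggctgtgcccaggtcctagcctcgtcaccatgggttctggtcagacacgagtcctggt
Gm12295: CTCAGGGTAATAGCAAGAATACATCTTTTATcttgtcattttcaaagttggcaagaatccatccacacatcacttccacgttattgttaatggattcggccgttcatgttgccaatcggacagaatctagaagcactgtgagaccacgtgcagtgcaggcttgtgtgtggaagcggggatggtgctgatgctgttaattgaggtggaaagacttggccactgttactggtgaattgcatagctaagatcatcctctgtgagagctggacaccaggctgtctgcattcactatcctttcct
C730014E05Rik: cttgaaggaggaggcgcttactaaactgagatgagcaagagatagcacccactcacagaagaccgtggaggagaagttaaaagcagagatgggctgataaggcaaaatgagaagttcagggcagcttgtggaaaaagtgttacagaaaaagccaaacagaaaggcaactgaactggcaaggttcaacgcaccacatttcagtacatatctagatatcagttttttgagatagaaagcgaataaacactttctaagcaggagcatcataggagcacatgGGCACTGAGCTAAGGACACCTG
Gm31012: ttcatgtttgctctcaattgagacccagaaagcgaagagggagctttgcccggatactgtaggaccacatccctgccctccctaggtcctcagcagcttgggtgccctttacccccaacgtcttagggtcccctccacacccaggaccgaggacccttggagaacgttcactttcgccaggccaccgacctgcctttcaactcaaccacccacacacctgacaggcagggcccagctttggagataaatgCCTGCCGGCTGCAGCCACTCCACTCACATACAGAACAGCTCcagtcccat
Their GC content was 49.3%, 46.0%, 44.3% and 57.7% in this order, against a median of 53% over 31396 autosomal promoter windows (quartiles 46% and 62%). The site at Nlrp3 had DMC1 608 and H3K4me3 15.1 in the authors' units, with B6 shares of 0.989 for DMC1 and 0.823 for H3K4me3. The site at Gm12295 had DMC1 262 with a share of 0.979, and H3K4me3 21.97 with a share of 0.889. The site at C730014E05Rik had DMC1 443 with a share of 0.930, and H3K4me3 27.5 with a share of 0.873. The site at Gm31012 had DMC1 300.9 with a share of 0.803, and H3K4me3 14.1 with a share of 0.715. At all 4 of these sites the DMC1 share exceeded the H3K4me3 share, as it did at 88.4% of the members with a DMC1 share.

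DMC1 was more one-sided than H3K4me3 at most members. The median DMC1 B6 share was 0.940 (95% interval 0.935 to 0.944, quartiles 0.870 and 0.972) over the 1443 members that had one, while the H3K4me3 share that chose them had a median of 0.814. A DMC1 share over 0.9 was found at 973 members, or 67.4% (64.9% to 69.8%), against 19.3% of all autosomal sites with a DMC1 share. The description of these hotspots as partly skewed thus held for H3K4me3, and went against the DMC1 values at most members. A share over 0.95 was found at 624 members and over 0.99 at 107, and 41 members had a share of 1. The same counts are not given here for all autosomal sites, so they only describe the members. In the other direction 49 members, or 3.40% (2.52% to 4.46%), had a DMC1 share under 0.5, against 53.9% of all autosomal sites. A single member had a share under 0.1, against 14.3% of all autosomal sites with a DMC1 share. Here and below, all autosomal sites include those on PRDM9-independent peaks, which the members leave out.

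**Figure D1:**
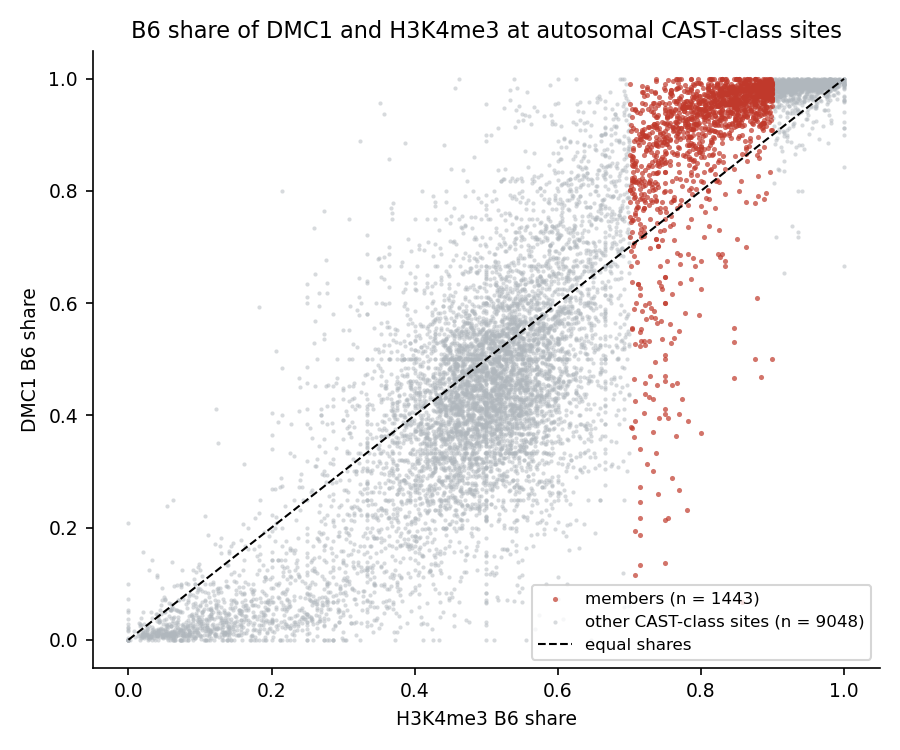
Each point is an autosomal CAST-class site away from PRDM9-independent peaks, with its H3K4me3 B6 share on the x axis and its DMC1 B6 share on the y axis. Members are red (1443 sites), other sites grey, and the dashed line marks equal shares; most red points lie above the line, with a median DMC1 share of 0.940.

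The DMC1 share exceeded the H3K4me3 share at 1276 of the 1443 members, 88.4%, against 43.4% of all autosomal sites with both shares. Because the H3K4me3 share chose the members, this count is a description. The median difference, DMC1 minus H3K4me3, was 0.105 (0.102 to 0.108). Among the 791 CAST-class sites of the mirror window, with an H3K4me3 share of 0.1 up to 0.3, the median difference was -0.109 and the median DMC1 share 0.0616. Thus on either side DMC1 lay farther from an even share than H3K4me3 did. Among the 6640 CAST-class sites with an H3K4me3 share of 0.3 to 0.7, called both-homologue sites here, the median difference was -0.05 and the median DMC1 share 0.455. Sites were also chosen by DMC1. Of 914 CAST-class sites with a DMC1 share over 0.7 and up to 0.9, H3K4me3 had the lower share at 838, or 91.7%. This window was chosen after the values were seen, and like the members' own window it favours a less extreme share in the mark not used for choosing, so it is a description only. Its median share was 0.8004 for DMC1 and 0.677 for H3K4me3. Of these sites 349 were also members, and 532 had an H3K4me3 share of 0.3 to 0.7.

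Inside the window the DMC1 share climbed steeply and then flattened. Members with an H3K4me3 share over 0.7 and up to 0.75 had a median DMC1 share of 0.820 (0.808 to 0.844, 328 sites). The next steps of 0.05 had medians of 0.917 (0.909 to 0.923, 305 sites), 0.953 (0.948 to 0.956, 363 sites) and 0.971 (0.968 to 0.974, 447 sites). The steps were cut on the share that chose the members, so this climb is a description. HUM-class sites had medians of 0.857, 0.911, 0.945 and 0.963 in the same steps. Among the members a DMC1 share over 0.9 was held by 22.6%, 59.3%, 83.5% and 92.8% of the sites of the 4 steps. Of the 49 members with a DMC1 share under 0.5, 34 lay in the lowest step and 12 in the next. Across the 1443 members the Spearman correlation of the shares was 0.62, a description over sites of the same pair of libraries.

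**Figure D2:**
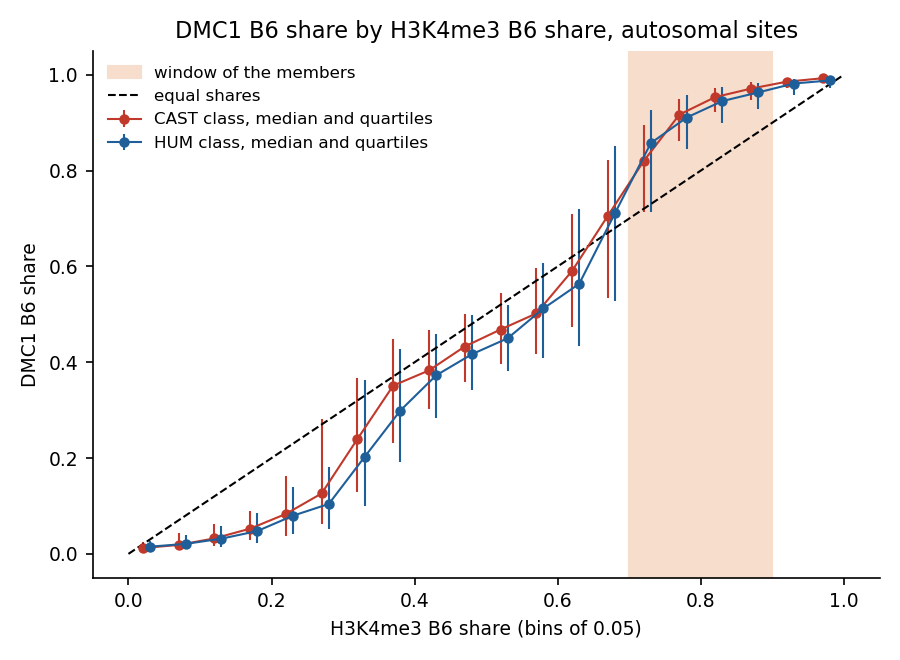
Median DMC1 B6 share (y axis, bars from lower to upper quartile) in bins of 0.05 of the H3K4me3 B6 share (x axis), for autosomal sites of the CAST class (red) and the HUM class (blue). In the shaded window of the members the CAST-class medians go from 0.820 to 0.971 and lie above the dashed line of equal shares.

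The skew was then divided between the homologues by multiplying each signal by its share. At the members the median DMC1 signal was 104 on the B6 homologue and 6.48 on the CAST homologue, and the median H3K4me3 was 9.80 on the B6 homologue and 2.16 on the CAST homologue. The rule for choosing members left part of their H3K4me3 on the CAST homologue, so its presence there is not a finding. Both medians on the CAST homologue lay below those of both-homologue CAST-class sites, 40.8 for DMC1 and 6.82 for H3K4me3. The share that chose the members enters the H3K4me3 value, so this is a description only. The median log2 ratio of DMC1 to H3K4me3 was 3.38 (3.30 to 3.43) on the B6 homologue and 1.62 (1.56 to 1.73) on the CAST homologue. The median gap within a site was 1.78 (1.70 to 1.87). This gap is set by the shares of the marks, so it restates their difference on another scale. The 41 members with a DMC1 share of 1 have no DMC1 listed on the CAST homologue and entered these medians as the lowest or highest values.

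Set against both-homologue sites of the CAST allele, the homologues of the members parted in opposite directions. On the B6 homologue the median log2 ratio was 3.38 at the members and 2.41 at both-homologue sites, a difference of 0.97. On the CAST homologue it was 1.62 at the members and 2.72 at both-homologue sites, a difference of -1.09. Both ratios contain the H3K4me3 share that chose the members, so these differences are a description only. Within the window the B6-homologue ratio had medians of 2.99, 3.28, 3.53 and 3.57 in the 4 steps of rising H3K4me3 share. The CAST-homologue ratio had medians of 2.25, 1.71, 1.53 and 1.32 in the same steps. At CAST-class sites with a share over 0.9 the ratios were 3.88 on the B6 homologue and 1.84 on the CAST homologue.

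**Figure D3:**
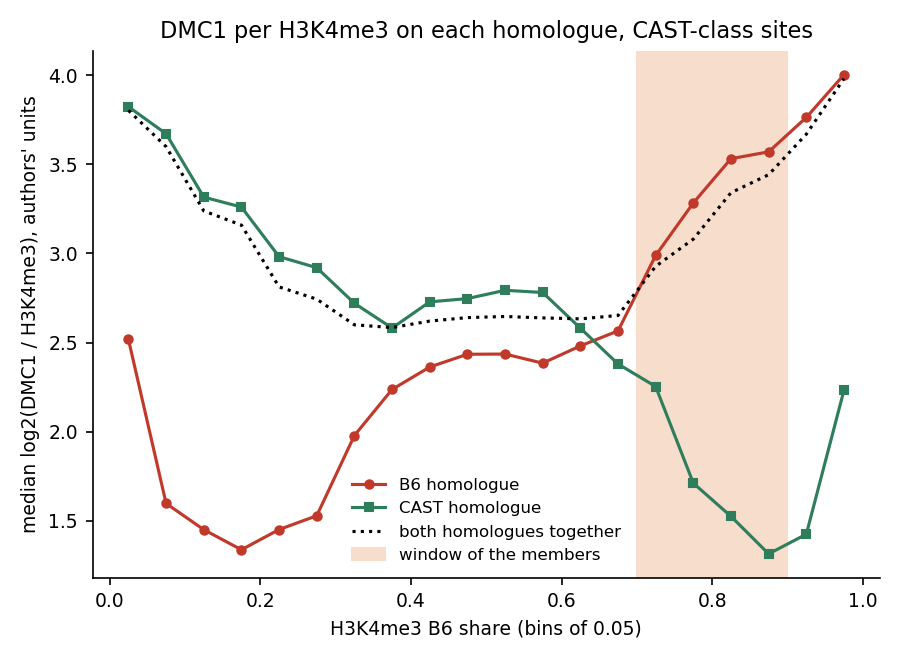
Median log2 ratio of DMC1 to H3K4me3 in the authors' units (y axis) on the B6 homologue (red), the CAST homologue (green) and both together (dotted), in bins of 0.05 of the H3K4me3 B6 share (x axis), for autosomal CAST-class sites. In the shaded window of the members the red line climbs from 2.99 to 3.57 and the green line drops from 2.25 to 1.32.

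The total signals of a site were not used to choose the members. For 951 of the 1471 members the H3K4me3 value was repeated at another site of the table, as it was for 15450 of all 24586 sites. Over all members the median DMC1 was 111 (98.8 to 123) and the median H3K4me3 11.9 (10.9 to 12.9), against 61.4 and 11.6 at all autosomal sites. The members were 6.22% of autosomal sites and held 9.58% of their summed DMC1 signal and 6.33% of their summed H3K4me3. At both-homologue CAST-class sites the medians were 74.9 for DMC1 and 13.6 for H3K4me3. The members' log2 DMC1 was higher than there by 0.57, or 1.48-fold, and on 18 of 19 autosomes, while their log2 H3K4me3 differed by -0.19. The median log2 ratio was 3.19 at the members (3.12 to 3.26) and 2.62 at both-homologue sites (2.59 to 2.64). The difference of 0.57 had the same direction on 19 of 19 autosomes, from 0.26 to 0.80, and was 0.59 at matched H3K4me3.

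CAST-class sites with an H3K4me3 share over 0.9 lay farther than the members from both-homologue sites in DMC1 and in the log2 ratio. Median DMC1 was 111 at the members and 262 at these sites. Median H3K4me3 was 11.9 at the members and 17.8 at these sites, but 13.6 at both-homologue sites, so it did not follow that order. The log2 ratio of the members was lower by 0.63 (a difference of -0.63, with the same direction on 19 of 19 autosomes) and lower by 0.49 at matched H3K4me3 (-0.49). Between the ends of the window the ratio moved as well, with medians of 2.90 (2.77 to 2.98), 3.07 (2.96 to 3.26), 3.34 (3.20 to 3.48) and 3.44 (3.31 to 3.53) in the 4 steps. By contrast, the median ratio of CAST-class sites stayed between 2.58 and 2.65 in all 7 bins from 0.35 to 0.7. The mirror window had weaker sites. Median DMC1 was 111 at the members and 41.7 in the mirror window, and median H3K4me3 11.9 at the members and 5.74 in the mirror window. The log2 ratio was higher at the members by 0.26, on 17 of 19 autosomes, but by 0.09 at matched H3K4me3.

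**Figure D4:**
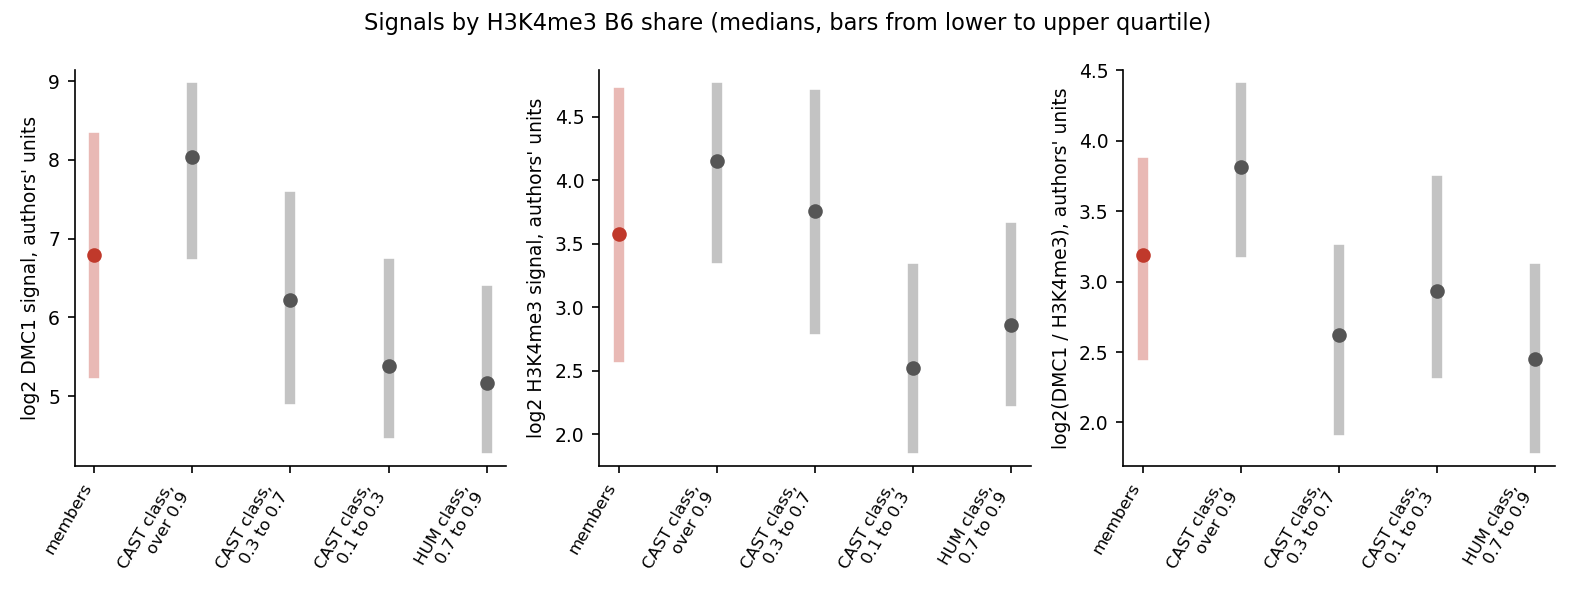
Medians (points) and quartile ranges (bars) of log2 DMC1, log2 H3K4me3 and their log2 ratio, in the authors' units, for the members (red) and 4 comparison sets (grey) named by PRDM9 class and H3K4me3 B6 share. The members' median ratio of 3.19 lies between 2.62 at shares of 0.3 to 0.7 and 3.82 at shares over 0.9.

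The same window of sites activated by the humanized allele gave nearly the same DMC1 share with weaker signals. The median DMC1 share was 0.940 at the members and 0.938 (0.933 to 0.941) at 1095 HUM-class sites, and 67.4% of the members and 64.8% of the HUM-class sites (61.9% to 67.7%) had a share over 0.9. Median DMC1 was 111 at the members and 36.1 at the HUM-class sites, and median H3K4me3 11.9 at the members and 7.28 at the HUM-class sites. The members' log2 ratio was higher by 0.74, on 19 of 19 autosomes, and by 0.62 at matched H3K4me3.

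Each window was also set against the both-homologue sites of its own PRDM9 class. At matched H3K4me3 the log2 ratio was higher by 0.59 at the members and by 0.40 in the mirror window of the CAST class, which share their both-homologue sites. In the HUM class it was higher by 0.18 in the B6-skewed window and by 0.55 in the mirror window, again over shared both-homologue sites. Without matching, the 4 differences were 0.57, 0.31, 0.11 and 0.46 in the same order. The larger difference thus lay on the B6 side in the CAST class and on the CAST side in the HUM class. Whether the classes differ was not tested, since sites are not replicates.

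The DMC1 share of the members hardly followed their H3K4me3 signal, but its spread did. In 4 equal groups of the members by H3K4me3, median DMC1 was 27.3, 65.7, 207 and 426 from the weakest group to the strongest. The median DMC1 share in these groups was 0.934, 0.954, 0.947 and 0.927. The DMC1 share below which 10% of the members lay was 0.593, 0.629, 0.792 and 0.796. Members with a DMC1 share under 0.5 numbered 22, 20, 5 and 2. Those 49 were weak sites, with medians of 27.9 (DMC1) and 6.39 (H3K4me3), while the 973 members with a share over 0.9 had 136 and 12.2. The 49 sites were picked by both shares, so their DMC1 lay mostly on the CAST homologue and their H3K4me3 mostly on the B6 homologue by choice. Their median log2 ratios of DMC1 to H3K4me3, 1.35 on the B6 homologue and 3.94 on the CAST homologue, are thus a description only. Across the 1443 members the Spearman correlation of the DMC1 share was -0.027 with H3K4me3 and 0.19 with DMC1, and that of DMC1 with H3K4me3 was 0.82. How many reads lay behind a share is unknown, so the part of counting error in the wider spread of weak sites was not tested. The 28 members without a DMC1 share were weak too, with a median DMC1 of 16.6.

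The strongest member, on chromosome 15 at 94143153 (mm10), lay 125 kb from Adamts20, a secreted metalloprotease gene, with DMC1 961 (share 0.919) and H3K4me3 55.4 (share 0.734). The second lay 2.03 kb outside St13, a co-chaperone gene (chromosome 15, 81363017), with DMC1 863 and shares of 0.888 for DMC1 and 0.749 for H3K4me3. The third lay 54.7 kb from Lpar3, a lysophosphatidic acid receptor gene (chromosome 3, 146340905), with DMC1 845 and shares of 0.989 for DMC1 and 0.897 for H3K4me3. These 3 span the window, and in each the DMC1 share was the higher. The fourth was inside Gm40755 (chromosome 10, 108329933; DMC1 845, share 0.960), and the fifth inside Glrx3, a glutaredoxin gene (chromosome 7, 137462719; DMC1 838, share 0.929). The sixth was inside Rgs17, a regulator of G-protein signalling (chromosome 10, 5895999; DMC1 833, share 0.901). The last of the 8 were inside Rps6ka2, a ribosomal S6 kinase gene (chromosome 17, 7172703; DMC1 820, share 0.891), and inside Mapk4, an atypical MAP kinase gene (chromosome 18, 73965507; DMC1 818, share 0.980), the last 4.17 kb from a CAST-class site with DMC1 543 and a share of 0.986. All 8 had a DMC1 share above their H3K4me3 share, as did 94.9% of the members at or above the median DMC1. At the strongest member the signals multiplied by share gave DMC1 of 883 on the B6 homologue and 77.9 on the CAST homologue, and H3K4me3 of 40.6 on the B6 homologue and 14.7 on the CAST homologue.

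Extremes of the share were taken from the 688 members at or above the autosomal medians of both signals that had a DMC1 share. Of these 474 had a share over 0.9 and 5 a share under 0.5. Over all 1443 members the counts were 973 (67.4%) and 49 (3.40%), and over all autosomal sites 19.3% and 53.9%. Equally strong sites outside the members were not counted, so these counts only describe the members. The 3 strongest with a DMC1 share of 1 lay inside Trpv4, a calcium-permeable channel gene (chromosome 5, 114651643; DMC1 437, H3K4me3 share 0.849), 19.3 kb from Nog, a BMP antagonist gene (chromosome 11, 89281346; DMC1 185, H3K4me3 share 0.853), and 2.16 kb from Defb20, a defensin gene (chromosome 2, 152474905; DMC1 143, H3K4me3 share 0.875). The lowest DMC1 share, 0.217, belonged to a site inside Dlg1, a scaffold gene (chromosome 16, 31699640), with DMC1 70.4, H3K4me3 27.3 and an H3K4me3 share of 0.754. There DMC1 was stronger on the CAST homologue, at 15.3 on the B6 and 55.1 on the CAST homologue, while H3K4me3 was 20.6 on the B6 and 6.70 on the CAST homologue. The next had shares of 0.371 for DMC1 and 0.733 for H3K4me3, inside Rapgef6, an exchange factor for Rap GTPases (chromosome 11, 54653098; DMC1 237). It lay 1.72 kb from a HUM-class site with DMC1 411 and a DMC1 share of 0.290, and the part of that neighbour in its values was not tested. The third had 0.395 for DMC1 and 0.742 for H3K4me3, 1464 kb from the nearest protein-coding gene, Pik3c3 (chromosome 18, 28801414; DMC1 77.2).

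The ratio of DMC1 to H3K4me3 varied widely among strong members. It was highest at the site of the Nlrp3 promoter printed above, where the DMC1 value was 40.2 times the H3K4me3 value. The site near Lpar3 followed with 38.5, and a site 129 kb from Aebp2, a Polycomb cofactor gene (chromosome 6, 140807320; DMC1 561, H3K4me3 15.8), with 35.5. All 3 had DMC1 shares of 0.989 to 0.9899. The lowest ratio, 1.502, was 280 kb from Camk1g, a calmodulin-dependent kinase gene (chromosome 1, 193650387; DMC1 98.4, H3K4me3 65.6, DMC1 share 0.962). A site 62.8 kb from 9530068E07Rik had 1.52 (chromosome 11, 52471474; DMC1 79.3, H3K4me3 52.1, DMC1 share 0.844). A site inside Mllt3, a transcription elongation gene, had 1.89 (chromosome 4, 87890271; DMC1 75.3, H3K4me3 39.9). At this last site the DMC1 share of 0.796 lay below the H3K4me3 share of 0.891. A CAST-class site with DMC1 101 and a DMC1 share of 0.364 lay 2.70 kb from it, and its part in these values was not tested.

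The bounds of the window cut a continuous range. Just inside the lower bound were sites inside Fli1 (H3K4me3 share 0.700348, DMC1 share 0.801) and Babam2 (0.700855 and 0.780). Just outside it, at an H3K4me3 share of 0.7, were sites inside Rars (DMC1 share 0.654) and 534 kb from Mrpl39 (0.892). Just inside the upper bound, where 15 members shared the value 0.9, the strongest were inside Col25a1 (DMC1 share 0.975) and Cygb (0.993). Just outside it were sites inside Retreg1 (H3K4me3 share 0.900161, DMC1 share 0.981) and Kcnk16 (0.900277 and 0.987).

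Members were found on all 19 autosomes, from 45 on chromosome 19 to 109 on chromosome 5. They made up 10.6% of the CAST-class sites with an H3K4me3 share on chromosome 2 and 18.2% on chromosome 10 (exact intervals 8.54% to 12.9% and 15.0% to 21.7%), the ends of the range. The median DMC1 share lay between 0.916 on chromosome 17 and 0.957 on chromosome 8. Shares over 0.9 were held by 53.4% of the members on chromosome 17 and by 76.5% on chromosome 1. The median log2 ratio ran from 2.90 on chromosome 11 to 3.504 on chromosome 3. On every autosome the median difference of the shares, DMC1 minus H3K4me3, was between 0.0905 and 0.117.

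**Figure D5:**
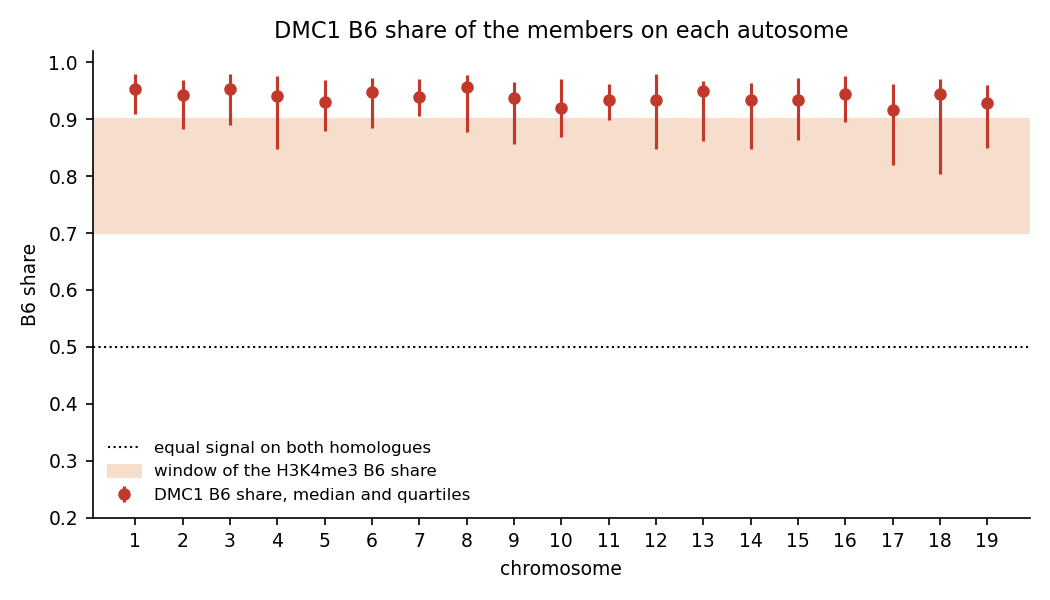
Median DMC1 B6 share of the members on each autosome (points, bars from lower to upper quartile), with the window of the H3K4me3 B6 share shaded and an even share dotted. All 19 medians, from 0.916 to 0.957, lie above the upper bound of the shaded window.

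Inside protein-coding genes lay 718 members, 48.8% (46.2% to 51.4%), against 53.5% of both-homologue CAST-class sites (52.3% to 54.7%) and 53.5% of those with a share over 0.9 (50.7% to 56.3%). The mirror window had 45.3% (41.8% to 48.8%), and all autosomal sites had 53.9% (53.3% to 54.6%). With 5 kb added on each side of a gene the figures were 54.5% at the members and 58.6% at both-homologue sites. Distance to the nearest RefSeq gene start, on 18 autosomes, had a median of 33.8 kb at the members (31.2 to 36.3) and 34.6 kb at both-homologue sites (32.8 to 36.4). Within 1 kb of a start lay 19 of 1398 members, or 1.36% (0.820% to 2.11%), and 1.1965% of both-homologue sites (0.947% to 1.49%). Of all autosomal sites 2.08% lay that close (1.90% to 2.28%). That set keeps sites on PRDM9-independent peaks, which the members and both-homologue sites leave out, and the part of those sites in the difference was not tested. The nearest other DMC1 site lay at a median of 29.4 kb from a member (27.5 to 31.5) and 29.3 kb from a both-homologue site. That neighbour was a HUM-class site for 42.0% of the members and for 37.2% of both-homologue sites.

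The members fell in 661 protein-coding genes, 60 of which held 2 members and 4 of which held 3. Grm8, a metabotropic glutamate receptor gene on chromosome 6, held 3 of its 7 sites in the window, with DMC1 of 285, 603 and 85.4 and DMC1 shares of 0.882, 0.928 and 0.585. Sox5, a transcription factor gene on the same chromosome, had 3 members among 20 sites, with DMC1 of 365, 386 and 49.4 and shares of 0.972, 0.910 and 0.882. Its first pair lay 1.24 kb apart, at 144248067 and 144249308. Nell1, a secreted glycoprotein gene on chromosome 7, had 3 members among 9 sites, with DMC1 of 73.2, 29.3 and 66.9 and shares of 0.968, 0.914 and 0.940. Dlg2, a synaptic scaffold gene on chromosome 7, had 3 among 16, with DMC1 of 106, 474 and 51.6 and shares of 0.977, 0.914 and 0.976.

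A neighbouring site within 5 kb was present for 136 members, 9.25%, against 9.41% of both-homologue sites. The neighbour belonged to the CAST class in 64 cases, to the HUM class in 59 and to the UNK class, which the file headers do not define, in 13. The members beside CAST-class neighbours had a median DMC1 share of 0.939, and those beside HUM-class neighbours one of 0.8997. The median DMC1 share of the neighbours was 0.619 in the CAST class (63 with a share) and 0.427 in the HUM class (56 with a share). Among the HUM-class neighbours 25 had a DMC1 share over 0.5 and 30 one under 0.5. The part under 0.5 was close to that of all autosomal sites with a DMC1 share, 53.9%, so these counts only describe the neighbours. There were 4 pairs of close neighbours in which both sites were members. Signals of sites this close may overlap, and that was not tested.

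Of the gene lists, one held members. The 18 synaptic adhesion and scaffold genes, with 5 kb flanks, held 8 members among 161 autosomal sites, or 4.97%, against 6.22% of all autosomal sites. Those described lay in Dlg2 (given above), Ptprd, Ctnna2 and Cntn5, all of them neuronal adhesion or junction genes. Ctnna2, on chromosome 6, had a strong B6 skew at 77856949 (DMC1 217, share 0.985). Ptprd had a member with DMC1 25.5 and a share of 0.898, and Cntn5 a member with DMC1 110 and a share of 0.795. No member lay in or near the 30 autosomal genes of meiotic break formation and repair, which held 26 autosomal sites of any kind. The 14 axis and synaptonemal complex genes held 8 sites, the 10 Sertoli and Leydig cell genes 3 and the 8 spermatid genes 2, with 0 members in each of these lists.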

How the data were processed

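Per the file headers, each line of the deposited table is a DMC1 hotspot in mm10. The authors estimated its centre, DMC1 signal and H3K4me3 signal with their own peak callers, and the deposited fractions are the B6 shares described above. Raw H3K4me3 reads are credited there to Li and colleagues. BWA was the aligner, per the submitters' processing notes (version 0.7.15 for the H3K4me3 library). Scaling to depth and the reads behind a value are unknown, so no counting error is given for a site. The MNase library was not used.

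The members, gene lists and comparisons were chosen with earlier results of these data known. Signals were compared as differences of median log2 values without pseudocount (Python 3.11.15, pandas 2.3.3, SciPy 1.17.1). Matching used 20 bins of H3K4me3 with equal numbers of autosomal sites, at least 5 sites of each set per bin, weighted by the smaller set. Shares have exact Clopper-Pearson intervals and medians exact binomial intervals from order statistics, both at 95%. The interval and the matching were tested on simulated data. Sites named are the 8 strongest by DMC1, 3 at each extreme of DMC1 share and of ratio among sites at or above the autosomal medians, 2 on each side of each bound, and those in listed genes or in genes with 3 or more. Those in promoter windows were added later. Some sites that this rule names are not reported here. The human PRDM9 motif was not searched, since it needs the genome sequence. Genes and sequences are from RefSeq GRCm38.p6; all listed autosomal symbols were matched.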

Additional observations from a re-analysis of the deposited data

How the results depend on the processing

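Of 21 results, 64 values were computed under other settings. Of these 30 stayed within the interval of the value reported, 34 moved outside it and 0 changed sign. Single shares and percentages cannot be negative, so for them a change of sign was not possible. For differences between sets the interval covers the spread of the members' median only. The 4 differences in log2 ratio stayed within their intervals with each autosome left out in turn. The mean DMC1 share was 0.890. Shares over 0.8 and over 0.95 were held by 85.03% and 43.2% of the members. In a window of 0.75 to 0.85, 72.5% had a DMC1 share over 0.9 and 1.95% one under 0.5; at or above the median H3K4me3 the share under 0.5 was held by 0.946%. At or above the median DMC1, the shares differed by 0.111 and 94.9% of members had the higher share in DMC1; without repeated H3K4me3 values these were 0.108 and 93.0%.

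Against CAST-class sites over 0.9, matching in 20 and 10 bins gave log2 DMC1 differences of -0.48 and -0.45 and ratio differences of -0.49 and -0.47. Means gave -0.996 for DMC1 and -0.40 for H3K4me3, and a pseudocount -0.55 for the ratio. Against the mirror window, matching gave 0.0853 and 0.12 for DMC1 and 0.0883 and 0.11 for the ratio, means 1.10 for DMC1 and 0.11 for the ratio, and a pseudocount 0.13 for the ratio. Against HUM-class sites, matching gave 0.61 and 0.63 for DMC1 and 0.62 and 0.62 for the ratio, means 1.33 for DMC1, and a pseudocount 1.44 for DMC1 and 0.61 for the ratio. At or above the median H3K4me3 the log2 ratio was 3.66 on the B6 and 1.85 on the CAST homologue. With 5 kb flanks 54.5% of the members were in genes. Matching compares sites of like H3K4me3, in which the sets differ. Against both-homologue sites the log2 DMC1 difference was 0.57 without matching and 0.60 in 20 bins, within its interval. Why the other values moved was not tested. No paired analysis was possible because there is 1 library per assay, and the depth behind each share is unknown.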
